A study of Mus musculus with 8 samples.

Results

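The genes described here are Il4, Il5 and Il13, which encode the type 2 cytokines, Gata3, which encodes the transcription factor of T helper 2 (Th2) cells, and Ccr8, which encodes a chemokine receptor of Th2 and regulatory T cells. Every probe annotated to these 5 symbols was taken, which gave 5 probes, 1 per gene, of 25697 probes and 16593 named genes on the array. The genes were chosen with their day 3 levels known, so those levels, and every comparison that contains them, are given as a description and support no test. The array measured RNA from mouse naive CD4+ T cells of the strain C57BL6/NCrl, sorted from lymph nodes and spleen as CD62L+CD44-CD25-DX5- cells and activated through CD3e with an antibody fixed to the plate, with a soluble CD28 antibody added. Plates also carried Delta4-Ig, the Notch ligand Delta-like 4 joined to an immunoglobulin tail, or control Ig. The 4 groups were Delta4-Ig at day 3 and control Ig at day 3, with mouse 1 and mouse 2 in each, and Delta4-Ig at day 1 and control Ig at day 1, with mouse 1 alone. At day 3 mouse 1 had a technical repeat array for each stimulus, so 8 arrays stood for 6 samples from 2 mice. Each day 3 group thus rests on 2 animals and each day 1 group on 1, and no sample without activation was analysed here.

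Naive CD4+ T cells can become Th2 cells when IL-4 acts through its receptor and STAT6 and raises Gata3. Gata3 protein then binds regulatory elements of the linked Il4, Il13 and Il5 genes and opens this cytokine locus. IL-4 drives the Th2 fate and antibody class switching to IgE, IL-5 acts on eosinophils, and IL-13 acts on epithelium and mucus secretion. Notch signalling is known to raise Gata3 and Il4 in activated CD4+ T cells of mice. Ccr8 is the receptor for the chemokine Ccl1.

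A probe was called detected on an array when its detection p-value lay under 0.01, and a probe was kept for comparisons when detected on at least 2 of the 8 arrays. This kept 10744 probes and all 5 members, although Il5 passed with exactly 2 arrays and Il13 with 3. Levels are normalized log2 intensities from the authors' table. Between 8940 and 10543 probes were detected per array, the most on the Delta4-Ig day 3 array of mouse 2, and that sample stood apart. Over all kept probes mouse 1 minus mouse 2 had an SD of 1.06 with Delta4-Ig and 0.746 with control Ig, whereas the repeat arrays of mouse 1 differed from the first arrays with an SD of 0.285 with Delta4-Ig and 0.284 with control Ig. Of 9 measured markers of CD4+ T cells, 9 were detected in each of the 6 samples. Their summed linear level was 88402 in the Delta4-Ig sample of mouse 2 at day 3, and 45257 to 58945 in the other samples. Cd8a and the measured markers of myeloid cells (5) and eosinophils (4) were detected on 0 arrays, while Cd8b1 was detected on all 8.

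Over all kept probes the day 3 difference between the stimuli correlated between the mice at r = 0.366 (Pearson, 10744 probes). Il10, Hey1 and Trib2 ran the same way in both mice. These genes were picked after their values were seen, so their agreement supports no test. Il10, a cytokine that restrains inflammation, was at 12.61 with Delta4-Ig and 5.33 with control Ig in mouse 1, and at 11.07 and 4.77 in mouse 2. Control Ig did not detect it at day 3 in either mouse, so Il10 was at least 77.2-fold and 33.8-fold higher with Delta4-Ig. Hey1, a direct Notch target, was likewise undetected with control Ig, and with Delta4-Ig it was at least 2.23-fold higher in mouse 1 and 5.07-fold higher in mouse 2. Trib2, a pseudokinase gene, was detected with both stimuli and was 4.83 and 4.76 higher on the log2 scale. The Th2 genes did not follow this order. The stimulus and mouse of each sample are those of its label, and a mix-up among the mouse 2 samples in a step before the arrays was not tested.

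At day 3 each of the 5 Th2 genes was higher with Delta4-Ig in mouse 1 and lower with Delta4-Ig in mouse 2. Il4 showed it most. Its 2 arrays with Delta4-Ig from mouse 1 read 12.65 and 12.75, and the array from mouse 2 read 5.43 and did not detect it. With control Ig the arrays of mouse 1 read 8.18 and 8.30 and that of mouse 2 read 10.76. The Delta4-Ig samples therefore lay on either side of both control samples, and the groups overlapped. In mouse 1 Il4 was 21.9-fold higher with Delta4-Ig, a log2 difference of 4.46. In mouse 2 it was at least 31.5-fold lower, where the bound sets the level that the undetected probe could have had at the lowest detected signal of its array.

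In raw intensity, which carries no normalization, the Il4 probe read 8622 and 7805 with Delta4-Ig in mouse 1 and 177 in mouse 2. It read 438 and 456 with control Ig in mouse 1 and 1678 in mouse 2. The same crossing is thus present before background correction and scaling.

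Gata3 crossed in the same way and was detected on all 8 arrays. With Delta4-Ig it stood at 11.32 and 11.15 in mouse 1 and at 8.40 in mouse 2, and with control Ig at 9.28 and 9.25 in mouse 1 and at 11.80 in mouse 2. Gata3 was 3.92-fold higher with Delta4-Ig in mouse 1 and 10.6-fold lower in mouse 2. The log2 differences were 1.97 and -3.40. Repeat arrays of mouse 1 differed from the first by -0.18 with Delta4-Ig and -0.02 with control Ig, far less than the gap between the mice.

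Ccr8 was also detected on all 8 arrays. With Delta4-Ig it read 9.53 and 9.13 in mouse 1 and 5.98 in mouse 2, close to the lowest detected signal of that array (5.78). With control Ig it read 7.59 and 7.97 in mouse 1 and 9.73 in mouse 2. This placed Ccr8 2.93-fold higher with Delta4-Ig in mouse 1 and 13.4-fold lower in mouse 2. Its repeat arrays differed by -0.40 with Delta4-Ig and 0.38 with control Ig, so the size in mouse 1 ran from 1.16 with the repeats alone to 1.94 with the first arrays alone on the log2 scale. Without background correction the log2 difference was 1.12 in mouse 1 and -2.28 in mouse 2, against 1.55 and -3.75.

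**Figure D1:**
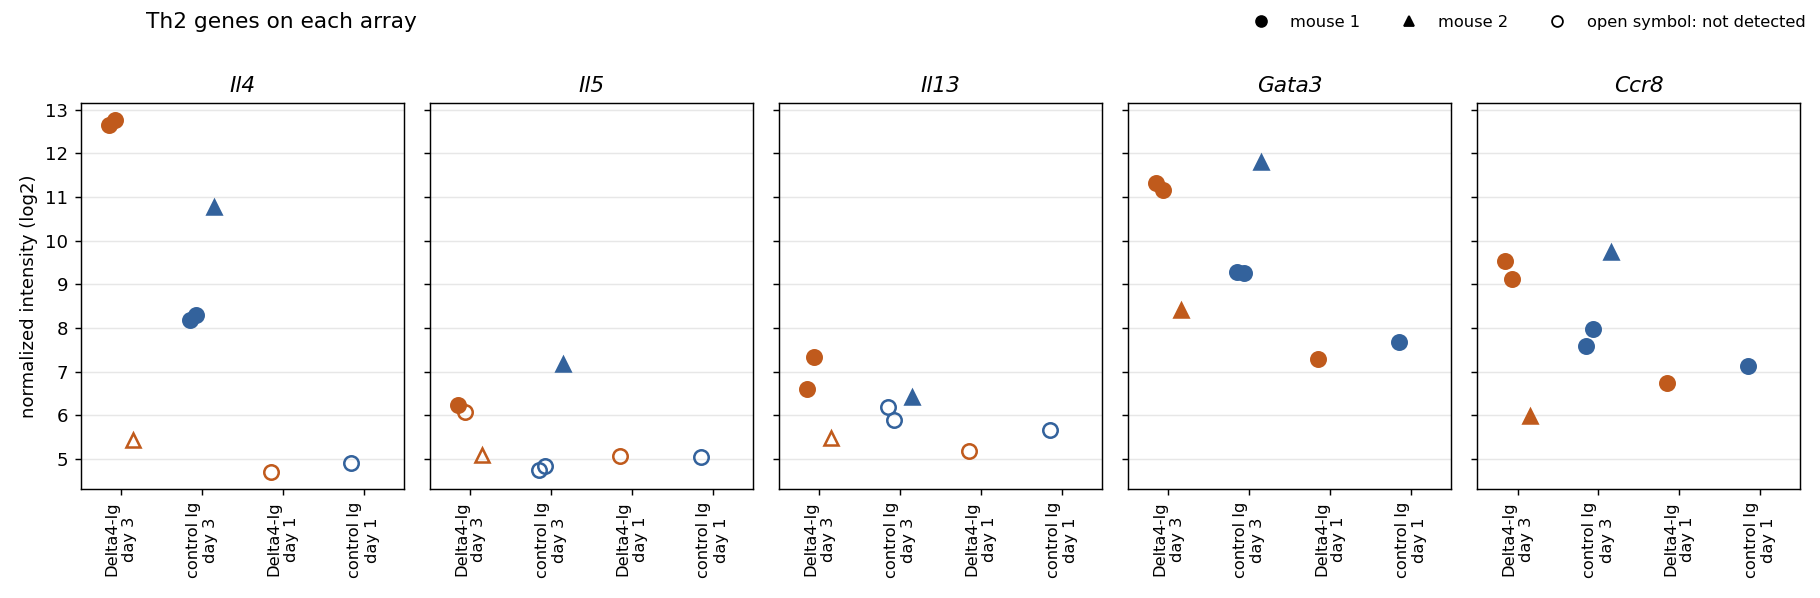
Normalized log2 intensity of each gene on each of the 8 arrays. Circles are mouse 1, triangles mouse 2, orange Delta4-Ig, blue control Ig, and open symbols arrays that did not detect the probe. At day 3 the orange circles lie above the blue circles while the orange triangle lies below the blue triangle for all 5 genes.

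Il5 and Il13 lay near background. Il5 with Delta4-Ig read 6.23 and 6.08 in mouse 1, where 1 of 2 arrays detected it, and 5.09 in mouse 2, undetected. With control Ig it read 4.74 and 4.83 in mouse 1, both undetected, and 7.17 in mouse 2, detected. In mouse 2 Il5 was therefore at least 2.61-fold lower with Delta4-Ig. In mouse 1 the log2 difference of 1.37 sets normalized readings near background against each other, with no fold bound above 1.

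Il13 with Delta4-Ig read 6.60 and 7.33 in mouse 1 and 5.48 in mouse 2, and with control Ig 6.18 and 5.90 in mouse 1 and 6.42 in mouse 2. Detection was limited to both Delta4-Ig arrays of mouse 1 and the control array of mouse 2. In mouse 1 Il13 was at least 1.54-fold higher with Delta4-Ig, and in mouse 2 at least 1.55-fold lower. The log2 differences, 0.93 and -0.93, were little larger than the 0.74 between the 2 Delta4-Ig arrays of mouse 1.

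Averaged over the mice, the stimuli did not separate for any member. Il4 averaged 9.06 ± 5.14 with Delta4-Ig and 9.50 ± 1.78 with control Ig, and Gata3 averaged 9.82 ± 2.00 and 10.53 ± 1.79 (SD, n = 2 mice each). Over both animals the log2 difference, Delta4-Ig minus control Ig, averaged -0.43 ± 6.92 for Il4, -0.35 ± 2.43 for Il5, 0.00 ± 1.31 for Il13, -0.72 ± 3.80 for Gata3 and -1.10 ± 3.75 for Ccr8 (SD, n = 2 mice). Each mean was smaller than the spread between the mice. Of the 5 members, 0 were called with limma at an adjusted p under 0.05, where the fit called 0 of 10744 probes, 0% of those tested, and 302 at an unadjusted p under 0.05. With the mouse as a block 0 of 5 were called against 0.763% of all probes. Nothing is read from these counts, since the genes were chosen on this contrast.

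**Figure D2:**
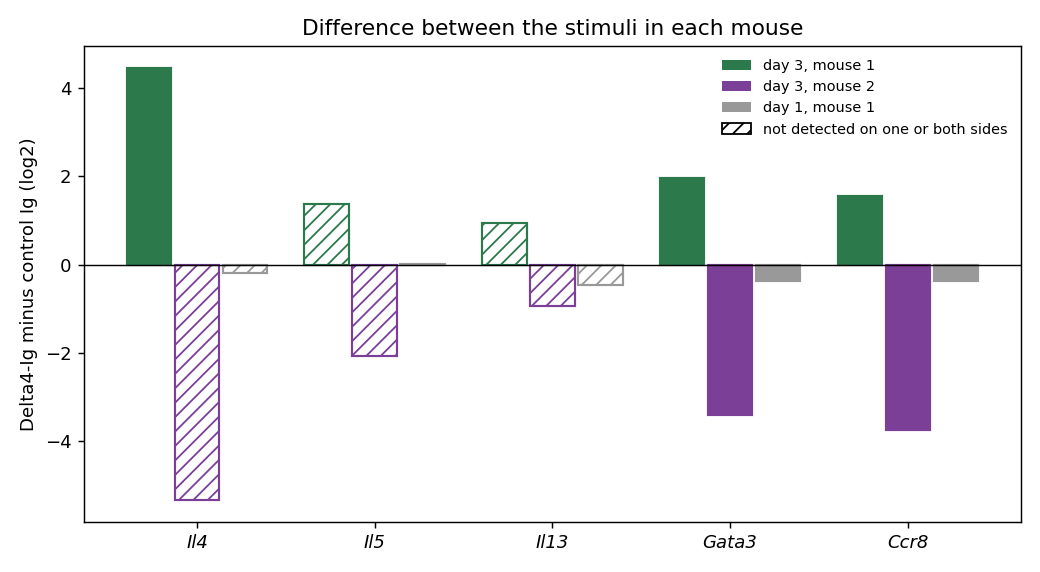
Log2 difference, Delta4-Ig minus control Ig, for each gene in mouse 1 and mouse 2 at day 3 and in mouse 1 at day 1. Hatched bars have an undetected probe on one or both sides. Green bars point up and purple bars down for all 5 genes, from 4.46 and -5.33 for Il4 to 0.93 and -0.93 for Il13.

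Few probes on the array crossed by this much. A normalized level at least 2-fold higher with Delta4-Ig in mouse 1, together with one 2-fold or more lower in mouse 2, was seen for 27 of 10744 kept probes, 0.251%, and for 4 of the 5 members, Il4, Il5, Gata3 and Ccr8. With undetected sides set at their bound, 19 of the 27 probes and 3 of these members still differed by 2-fold in both mice, Il5 being the one that did not, since its size in mouse 1 has no bound. At any size this order held for 21.6% of kept probes. The opposite crossing, lower in mouse 1 and higher in mouse 2, was found for 20 probes (0.186%) and 0 members. Nothing is read from these counts about the members, which were chosen on these values.

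Seen within each stimulus, the mice differed in opposite ways. Mouse 1 minus mouse 2 with Delta4-Ig was 2.83 for Gata3 and 3.35 for Ccr8 on the log2 scale, and Il4 was at least 121-fold higher in mouse 1. With control Ig the same subtraction gave -2.51 for Il4, -2.54 for Gata3 and -1.95 for Ccr8. At least 2-fold differences between the mice were frequent over all kept probes, at 15.5% higher and 14.6% lower with Delta4-Ig and 5.29% higher and 7.72% lower with control Ig. In bulk RNA, fewer cells with a transcript and less of it per cell cannot be told apart.

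**Figure D3:**
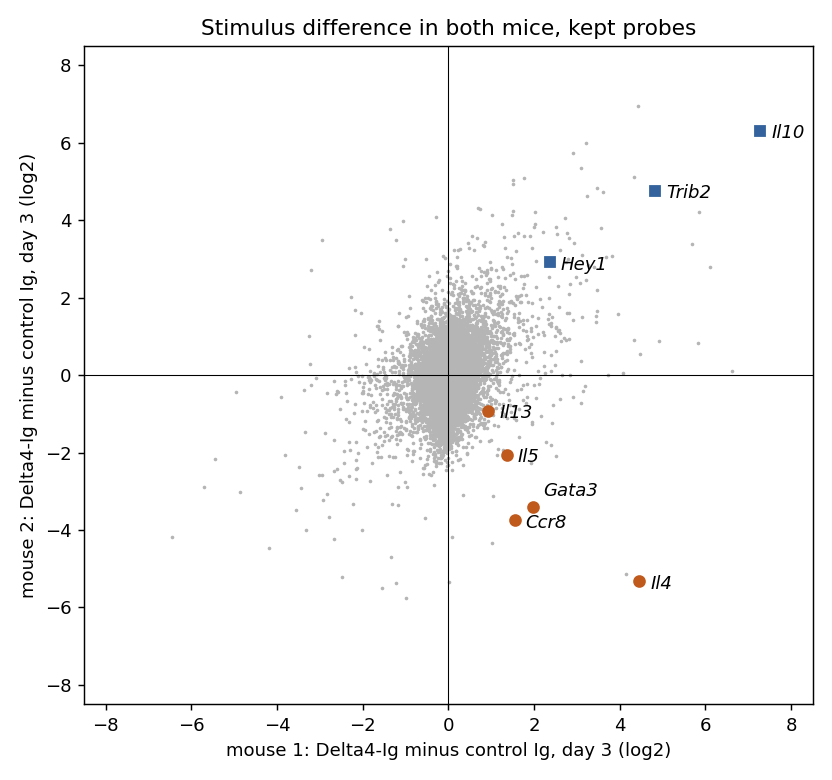
Log2 difference between the stimuli at day 3 in mouse 1 (horizontal) and mouse 2 (vertical) for all 10744 kept probes in grey. The 5 Th2 genes (orange) lie in the lower right quadrant, with Il4 at 4.46 and -5.33, while Il10, Trib2 and Hey1 (blue) lie in the upper right.

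Across the 6 samples Il4, Il13, Gata3 and Ccr8 were closer to one another than Il5 was to Il4 and Il13. Il4 correlated with Il13 at r = 0.973, with Gata3 at 0.952, with Ccr8 at 0.914 and with Il5 at 0.736 (Pearson, n = 6 samples, which share 2 mice and 1 chip). Gata3 and Ccr8 correlated at 0.914, and the lowest pair was Il5 with Il13 at 0.671. Il5 correlated with Gata3 at 0.861 and with Ccr8 at 0.841. Il5 was detected on 2 of the 8 arrays and Il13 on 3, so their correlations rest in large part on undetected readings. Il5 was in place 416 among the genes most like Il4 and in place 520 among those most like Il13. Of 7503 other genes, those most like Il4 were Arcn1 (0.995), Mrpl1 (0.979), Septin8 (0.977), Edn1 (0.974) and Il13. Most like Gata3 were Faf1, Fbxo42, Epn2, Zdhhc12 and Lmna (0.976 to 0.981), and most like Ccr8 were Mtpn, Slc1a4, Rapsn, Zfp941 and Mettl22 (0.972 to 0.992). Most like Il5 were Calcrl, Il23a, Smc2, Efna5 and Slc6a9 (0.960 to 0.976). Besides Il4, those most like Il13 were Arcn1, Tnp2, Mrpl1 and Dcun1d3 (0.948 to 0.986). Likeness is in shape and not in size: Arcn1, a coat protein gene of the Golgi, spanned 7.69 to 8.42, whereas Il4 spanned 4.71 to 12.70.

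Il4, Il13 and Il5 lie next to one another with the DNA repair gene Rad50 between Il13 and Il5. RefSeq promoters of the 3 cytokine genes are shown because these genes crossed together and are textbook targets of Gata3. Each window holds 300 bases around the annotated start, in GRCm38.p6, 5′ to 3′ on the strand of the gene. Capitals mark every match, on either strand, to a GATA hexamer (AGATAA or else AGATAG and likewise TGATAA or else TGATAG) or to the NFAT core GGAAA. For Il4 the window is that of the more upstream of 2 annotated starts.
Il4, chr11:53618616-53618915, minus strand: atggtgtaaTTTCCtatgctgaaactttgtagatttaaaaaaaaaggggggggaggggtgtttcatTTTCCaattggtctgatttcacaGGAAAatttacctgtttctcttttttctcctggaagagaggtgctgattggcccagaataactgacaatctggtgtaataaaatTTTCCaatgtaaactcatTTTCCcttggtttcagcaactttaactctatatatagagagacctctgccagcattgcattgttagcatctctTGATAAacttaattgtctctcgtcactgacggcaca
Il13, chr11:53634653-53634952, minus strand: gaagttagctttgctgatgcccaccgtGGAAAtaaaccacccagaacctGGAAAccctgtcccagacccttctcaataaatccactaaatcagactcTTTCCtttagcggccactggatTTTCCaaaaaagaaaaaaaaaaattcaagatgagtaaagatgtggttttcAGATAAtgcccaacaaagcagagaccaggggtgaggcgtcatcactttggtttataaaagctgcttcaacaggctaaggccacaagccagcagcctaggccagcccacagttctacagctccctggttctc
Il5, chr11:53720544-53720843, plus strand: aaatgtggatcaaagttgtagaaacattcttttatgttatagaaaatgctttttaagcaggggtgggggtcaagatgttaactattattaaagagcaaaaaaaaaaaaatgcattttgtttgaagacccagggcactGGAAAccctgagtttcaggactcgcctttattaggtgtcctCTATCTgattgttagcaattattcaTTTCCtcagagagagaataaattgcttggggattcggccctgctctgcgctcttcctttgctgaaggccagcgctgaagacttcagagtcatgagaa
Each of the 6 windows annotated to the 5 members held exactly 1 GATA hexamer, and no GATA match overlapped an NFAT core. A GATA hexamer stood in 29.8% of the 32851 RefSeq promoter windows of this length. The NFAT core was found in 5 of the 6 windows, up to 5 times in the Il4 window shown, and in 61.3% of all windows. The core TGGGAA, bound by the Notch effector RBPJ, was in 0 of the 6 windows and in 25.6% of all. These are letter matches in a short window, and no binding was measured.

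Genes around the cytokines showed the crossing in part. Of 9 listed neighbours on the array, 8 were kept. Septin8, a cytoskeletal gene 2 places beyond Il4, was detected on 3 arrays and was at least 1.95-fold higher with Delta4-Ig in mouse 1 and, in mouse 2, lower by at least 2.47-fold. Il3, a cytokine gene further along the chromosome, differed by 2.27 and -1.73. Rad50 (0.24 and -1.08) and Kif3a, a kinesin gene (0.21 and -0.45), had the same signs at smaller size. Csf2, the gene of GM-CSF that lies beside Il3, was lower with Delta4-Ig in both mice (-1.54 and -5.50). Irf1, a transcription factor of interferon responses, was also lower in both, at 12.70 with Delta4-Ig and 13.70 with control Ig in mouse 1 and at 12.24 and 13.16 in mouse 2, and P4ha2, a collagen-modifying enzyme gene, was higher in both (1.56 and 2.48). Of the 8, 0 passed for the stimulus at day 3 in either fit. Over all kept probes, 0% passed without a mouse term and 0.763% with the mouse as a block. For time with Delta4-Ig, P4ha2 was higher at day 3 by 3.39 ± 0.47 with the block (log2, SE from limma). That estimate is against 1 sample at day 1, which did not detect P4ha2.

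**Figure D4:**
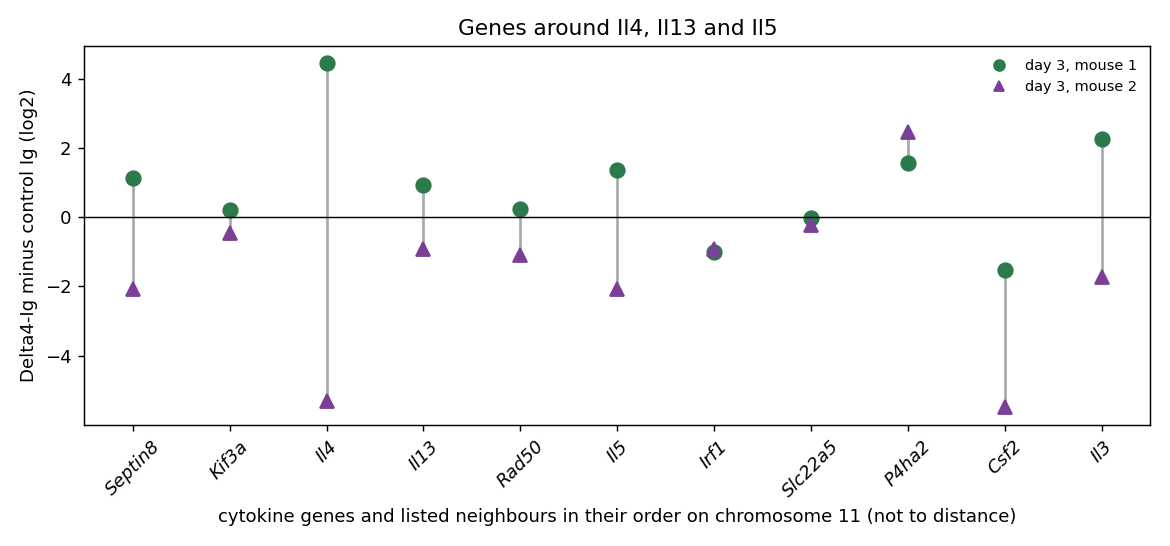
Log2 difference, Delta4-Ig minus control Ig at day 3, in mouse 1 (circles) and mouse 2 (triangles) for the 3 cytokine genes and their 8 kept listed neighbours in their order on chromosome 11, not to distance. Il4, Il13, Il5, Il3, Septin8, Rad50 and Kif3a have circles above 0 and triangles below, while Irf1, Slc22a5, P4ha2 and Csf2 have both on one side.

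At day 1 Gata3 and Ccr8 were detected with both stimuli, and Il4, Il5 and Il13 with neither. Gata3 read 7.28 with Delta4-Ig and 7.67 with control Ig, and Ccr8 read 6.74 and 7.12. Each was 1.30-fold lower with Delta4-Ig, at 1 sample per stimulus, without a replicate check. Of all kept probes, 10.3% were as far below control as Gata3 and 10.7% as far as Ccr8.

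From day 1 to day 3 in mouse 1, the animal sampled on both days, Il4 changed most. With Delta4-Ig it read 12.70 at day 3 against 4.71 at day 1, at least 96.5-fold higher. With control Ig it read 8.24 at day 3 against 4.91 at day 1, at least 4.03-fold higher. Gata3 was 15.5-fold higher at day 3 with Delta4-Ig and 3.03-fold higher with control Ig. Ccr8 was 6.02-fold and 1.58-fold higher. Il13 was at least 1.82-fold higher with Delta4-Ig, and Il5 at least 1.04-fold.

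Set against the same day 1 arrays, the day 3 samples of mouse 2 gave the reverse order of the stimuli. With control Ig Gata3 was 17.6-fold higher and Il4 at least 23.0-fold higher than at day 1. With Delta4-Ig Gata3 was 2.17-fold higher, Ccr8 was 1.69-fold lower and Il4 was detected at neither time. These values set one animal against another.

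The fitted time differences set both mice at day 3 against mouse 1 at day 1, and since they contain the levels on which the genes were chosen they are given without a p. With Delta4-Ig, day 3 minus day 1 was 4.36 ± 2.97 for Il4, 2.53 ± 1.52 for Gata3 and 0.91 ± 1.54 for Ccr8 on the log2 scale (SE from limma). With control Ig it was 4.59 ± 2.97 for Il4, 2.87 ± 1.52 for Gata3 and 1.64 ± 1.54 for Ccr8. For Il5 and Il13 the 4 values lay between 0.55 and 1.03. At an adjusted p under 0.05 limma called 0 of 5 members and 0% of probes in each comparison, with 902 probes at an unadjusted p under 0.05 with Delta4-Ig and 647 with control Ig. With the mouse as a block, which called 3.03% of probes with Delta4-Ig and 2.91% with control Ig, Il4 differed by 5.55 ± 2.45 and 5.78 ± 2.45, and again 0 of 5 members were called. Nothing is read from these counts about the members.

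The stimulus effect at day 3 minus that at day 1 contains the contrast used in the choice of the genes, and its values are a description. It ran from -0.72 ± 2.18 for Ccr8 to 0.47 ± 1.01 for Il13, with -0.23 ± 4.21 for Il4 (SE from limma). The fit called 0% of probes, with 64 at an unadjusted p under 0.05.

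Other genes of the Th2 pathway were taken from lists by role, which were chosen with earlier results of these data known. The crossing of any size, higher with Delta4-Ig in mouse 1 and lower in mouse 2, was seen for 1 of 6 kept cytokine and effector genes, 3 of 10 upstream signalling genes, 7 of 14 activators and 2 of 10 antagonists, beside 21.6% of all kept probes. Among 6 kept cytokine and effector genes, 0 passed for the stimulus without a mouse term, and with the mouse as a block 1 was higher and 1 lower, where 0.465% of all kept probes were higher and 0.298% lower. Il10 was the first, and its call supports no test, since its values had been seen. Tnfsf11, the gene of RANKL, was the second, at log2 differences of -2.22 in mouse 1 and -3.32 in mouse 2 (limma adjusted p = 0.0247 with the block). Il24 was at 11.85 with Delta4-Ig and 5.24 with control Ig in mouse 1, and at 12.08 and 11.99 in mouse 2, and was undetected with control Ig in mouse 1 alone. Ecm1, an extracellular matrix gene of Th2 cells, was higher with Delta4-Ig in both mice, by 1.89 and 3.59. Il3 was the gene of this list that crossed. For time with control Ig, Il3 (adjusted p = 0.0302) and Csf2 (0.0213) were higher at day 3 with the block, as were 2.14% of all kept probes.

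Of 10 kept genes of upstream signalling, Socs3, a feedback inhibitor of cytokine receptors, was higher in both mice (3.48 and 2.19). Socs3 passed with the block (limma adjusted p = 0.0276), where 0.465% of all kept probes were higher. Stat6, which carries the IL-4 signal, differed by -0.22 and -0.37, Il7r by 1.63 and 1.47, Jak3, a kinase of cytokine receptors, by 0.61 and 1.48, and Il2rb by 0.74 and 0.68. The remaining 9 did not pass in either fit.

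None of 14 kept activators of Gata3 or Il4 passed for the stimulus in either fit, beside 0% of all kept probes without a mouse term and 0.763% with the block. Nfil3, a transcription factor induced by IL-4, was 3.12 and 1.49 higher with Delta4-Ig on the log2 scale, and Satb1, a chromatin organiser of the cytokine locus, 1.15 and 0.18 higher. Batf, an AP-1 factor, differed by 1.83 and -0.23, Gfi1, a transcriptional repressor that promotes growth of Th2 cells, by 0.44 and -2.04, and Jund by -0.32 and -0.90. With the block, Nfil3 and Bhlhe40 were higher at day 3 with Delta4-Ig (limma adjusted p = 0.0308 and 0.0322), as were 2.35% of all kept probes, and Bhlhe40 also with control Ig (0.0344). Bhlhe40 is a transcriptional repressor induced by activation.

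Among 10 kept genes that oppose the Th2 fate, 0 passed without a mouse term and 1 was lower with Delta4-Ig with the block, where 0.298% of all kept probes were lower. This was Eomes, a T-box factor of type 1 cells (limma adjusted p = 0.0159 with the block). No day 3 array with Delta4-Ig detected Eomes, which was at least 4.28-fold lower in mouse 1 and 4.89-fold lower in mouse 2. Tbx21, the transcription factor of Th1 cells, stood at 9.98 and 9.63 with Delta4-Ig in mouse 1 and mouse 2 and at 10.79 and 10.69 with control Ig at day 3, but at 8.66 with Delta4-Ig and 7.15 with control Ig at day 1. The differences at day 3 were -1.36 and -0.99 for Runx1 and -0.41 and -0.25 for the Gata3 partner Zfpm1. For Bcl6 the difference was -1.39 in mouse 1, and in mouse 2, where Delta4-Ig left it undetected, Bcl6 was at least 1.27-fold lower. Tbx21, Runx1, Bcl6 and Zfpm1 did not pass for the stimulus in either fit. For time with control Ig, Tbx21 was higher at day 3 by 3.71 ± 0.41 with the block (log2, SE from limma), against 1 sample at day 1.

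Ccl1, the ligand of Ccr8, was the single kept gene of 9 listed chemokine receptors and ligands, and it did not follow its receptor. It stood at 9.60 with Delta4-Ig and 10.63 with control Ig in mouse 1 at day 3, and was undetected with either stimulus in mouse 2 (4.65 and 4.81). At day 1, in mouse 1, Ccl1 was undetected too, at 5.20 under Delta4-Ig and 4.65 under control Ig. Day 3 minus day 1 with the block came to 4.62 ± 0.46 under Delta4-Ig (log2, SE from limma). Under control Ig it came to 5.76 ± 0.46. Each estimate is against 1 sample at day 1 and rests on mouse 1, since mouse 2 showed no rise above the day 1 background. For time, Ccl1 passed with the block but not without a mouse term.

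Markers of other cells that can make IL-4 were given for comparison. Of 7 measured genes of mast cells and basophils, Hdc, the enzyme that makes histamine, was detected in all 6 samples and 6 were detected on 0 arrays, among them Mcpt8, Cpa3 and Fcer1a. Hdc stood at 6.19 and 7.21 with Delta4-Ig in mouse 1 and mouse 2 at day 3, and at 7.16 and 9.12 with control Ig. The summed linear level of this list was 245 and 324 with Delta4-Ig and 342 and 738 with control Ig at day 3, and 257 with Delta4-Ig and 279 with control Ig at day 1. Apart from Hdc, this sum holds background readings of the 6 undetected genes. Of 7 measured markers of NK or NKT cells, Klrb1c, Ncr1 and Klra1 were detected on 0 arrays, Nkg7 on all 8, and Klrd1, Klrk1 and Eomes on some. Their summed level was 7353 and 13788 with Delta4-Ig and 6478 and 4968 with control Ig at day 3, and 869 with Delta4-Ig and 689 with control Ig at day 1. At day 3 most of it was Nkg7. Of 4 measured markers of type 2 innate lymphoid cells 1, Rora, was detected, at 7.05 and 9.32 with Delta4-Ig in mouse 1 and mouse 2 and at 7.26 and 6.88 with control Ig at day 3. The summed level of these 4 was 230 and 740 with Delta4-Ig and 247 and 221 with control Ig. Of 6 B cell markers 1, Cd79b, was detected, on 1 array. The part of other cells in the difference between the mice was not tested.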

How the data were processed

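RNA from 6 samples was measured on 8 one-colour Illumina arrays of 1 chip. The authors deposited intensity values on a linear scale that are not normalized, per the file headers, and the same deposited table gives each value its detection p-value. They also deposited processed log2 values of the same arrays, with scale and centring unstated. Per the submitters' processing notes the tools were GenomeStudio and limma, whose versions and roles are not given there. The deposited log2 values differed from neqc values computed from the intensities (offset 16) by at most 0.0417, with a correlation of 1.00 on each array, and were therefore taken to be on that scale, background-corrected and quantile-normalized. Column medians were 5.28 on each array.

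The deposited log2 values were used for levels and fits. Probes were named from the platform annotation (1 symbol for 23978 probes, none for 1719), and other genes by their kept probe with the highest mean. Technical arrays were averaged. A single model with a mean for each of the 4 groups was fitted by lmFit and eBayes of limma 3.58.1 (R 4.3.3) on 10744 probes, with Benjamini-Hochberg adjustment over all of them and a threshold of 0.05. It had 2 residual degrees of freedom, all from day 3, so the spread at day 1 was taken to equal that at day 3. The mouse as a replicate block was an alternative (1 residual degree of freedom). The labels give 1 number to samples of 1 animal, and over kept probes the difference between the mice correlated at 0.607 between the stimuli. Bounds set an undetected probe at the higher of its own value and the lowest detected signal of its array.

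The members and lists were chosen with earlier results of these data known. From each list the genes past the threshold and up to 5 with the largest mean difference at day 3 are named. Other genes are named by Pearson correlation with a member over the 6 samples. Il10, Hey1, Trib2 and the probes ordered by crossing were added after their values were seen. Alternatives were the normalization, background correction, offset, scaling, detection filter, technical arrays, and each day 3 sample left out.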

Additional observations from a re-analysis of the deposited data

How the results depend on the processing

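The crossing of the 5 Th2 genes between the mice kept its direction in each of the 6 settings tried. These were neqc from the intensities, no background correction, an offset of 50, 75th percentile scaling, and either array of mouse 1 alone. The neqc values differed from the deposited ones by at most 0.0417. Either array of mouse 1 alone left the values of mouse 2 unchanged. These settings could therefore not change the direction in mouse 2. Members with normalized values at least 2-fold apart in both mice numbered 3 or 4, a count chosen after seeing the data. Without background correction Il4 was 3.93 in mouse 1 and -3.37 in mouse 2 on the log2 scale, Ccr8 1.12 and -2.28, Il5 0.51 and -0.78, and Il13 0.38 and -0.31. With the mouse as a replicate block, limma called 82 probes for the stimulus at day 3, 326 for time with Delta4-Ig and 313 for time with control Ig, where it called 0 without the block, and it changed no member's call. Leaving out 1 day 3 sample at a time, which assumes that a lone sample varies like the other group, gave 0 to 13, 0 to 46 and 0 to 9 calls. The highest counts came without control Ig of mouse 2 for the stimulus (13), without control Ig of either mouse for time with Delta4-Ig (46) and without control Ig of mouse 1 for time with control Ig (9).

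Signs that turned were all of uncalled values. Without 1 sample, time with control Ig ran from -0.27 to 2.11 for Il5, and time with Delta4-Ig from -0.76 to 2.59 for Ccr8. The interaction ran from -3.87 to 3.40 for Il4, -1.56 to 0.82 for Il5, -0.27 to 1.21 for Il13, -1.75 to 1.08 for Gata3 and -2.40 to 0.95 for Ccr8. For Il4 it was 0.41 without background correction and 0.18 with 75th percentile scaling, against -0.23. The mean stimulus difference at day 3 ran from -4.07 to 3.20 for Il4, -1.54 to 0.84 for Il5 and -0.74 to 0.74 for Il13. It ran from -2.13 to 0.70 for Gata3 and -2.77 to 0.57 for Ccr8. Each mean averages opposite differences of the mice, so leaving out a sample can turn its sign. Why the mice differed was not tested. Signal over background limits Il4, Il5 and Il13, which leave the fit when detection on all 8 arrays is required.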

Other observations

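The 27 probes that crossed at day 3, higher with Delta4-Ig in mouse 1 and lower in mouse 2 by at least 2-fold, were looked at after their values were seen. Of these, 4 were the probes of Il4, Il5, Gata3 and Ccr8. Efna5, an ephrin ligand gene, was detected in the Delta4-Ig sample of mouse 1 and the control Ig sample of mouse 2 only among the day 3 samples, at least 8.37-fold higher with Delta4-Ig in mouse 1 and, in mouse 2, lower by at least 25.6-fold. Chac1, an enzyme gene of glutathione breakdown, had log2 differences of 2.52 and -2.08, Slc6a9, a glycine transporter gene, by 1.93 and -2.27, and Slc7a3, a transporter gene of basic amino acids, by 2.40 and -1.81. Asns, the gene of asparagine synthetase, had 2 probes among the 27, of which the one detected on all sides differed by 1.53 and -1.11 and the other was at least 3.23-fold higher in mouse 1. Gpt2, the gene of an alanine aminotransferase, was at least 3.62-fold higher in mouse 1 and differed by -1.21 in mouse 2. Crem, a gene of the cAMP response, had 3 probes among them. Il6, a cytokine gene, was at least 1.43-fold higher in mouse 1 and, in mouse 2, lower by at least 1.86-fold, and Inhba, the gene of an activin subunit, differed by 1.96 and -1.27. P2ry1, a receptor gene for extracellular nucleotides, differed by 1.01 in mouse 1. In mouse 2, where Delta4-Ig left P2ry1 undetected, its normalized readings differed by -4.33.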
